A study of Mus musculus with 15 samples.

Results

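The collagen genes of mouse primary chondrocytes were followed through treatment with 4 inhibitors. Members were all genes whose symbol in the array annotation was Col, a number, the letter a and a number. There were 42 of them, read by 82 probe sets, of 18194 genes and 45101 probe sets on the Affymetrix Mouse Genome 430 2.0 array. A probe set is a group of short probes against 1 or more transcripts, and its MAS5 signal is a linear brightness that the authors scaled to a common trimmed mean on every array. Signals of different probe sets are not read below as amounts of one transcript against another, because probe sets differ in how brightly they bind. Sums over marker lists add such signals, so the brightest probe sets weigh most in them.

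The cells came from tibiae, femurs and humeri of CD1 embryos at embryonic day 15.5, released with trypsin and collagenase P and grown in monolayer. Each of the 5 groups held 3 arrays, and all groups, the vehicle DMSO included, received medium with ascorbic acid and β-glycerophosphate for 24 hours. LY294002, an inhibitor of the lipid kinase PI3K, UO126, an inhibitor of the ERK-activating kinase MEK, and SB202190 were used at 10 µM. SB202190 is usually described as a p38 inhibitor, although the series text lists it with the MEK/ERK inhibitors. TSA (trichostatin A) inhibits histone deacetylases, and its dose is not given here because the unit cannot be read from the labels. The cultures are bulk samples of dissociated cells, so fewer cells of a type and less RNA per cell cannot be told apart. The series calls the arrays biological replicates, so p-values cover the spread between these cultures, and whether equal numbers in different groups mark 1 experiment is not stated in the labels.

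Collagens are proteins of 3 chains wound into a triple helix. Fibrillar collagens form the ropes of the matrix, and in cartilage the main rope is type II collagen, built from Col2a1, with type XI collagen (Col11a1, Col11a2) inside the fibril and type IX collagen (Col9a1, Col9a2, Col9a3) on its surface. Hypertrophic chondrocytes, which enlarge before cartilage is replaced by bone, make the short network collagen type X (Col10a1). Type I (Col1a1, Col1a2) and type III (Col3a1) collagen belong to bone, tendon and loose connective tissue, and chondrocytes kept in monolayer are known to take up type I collagen. Types IV, VI, XV and XVIII lie in or near basement membranes and around cells.

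Of the 42 genes, 32 had at least 1 of 52 probe sets with a group mean of 50 or more in at least 1 group and were tested. They comprised 10 of 11 fibrillar, 6 of 9 fibril-associated, 5 of 6 basement membrane, 3 of 5 beaded filament, 3 of 3 short-chain network, 2 of 2 multiplexin, 2 of 4 transmembrane and 1 of 1 anchoring fibril genes. The 10 genes below this level were Col4a4, Col6a4, Col6a5, Col13a1, Col17a1, Col19a1, Col20a1, Col22a1, Col24a1 and Col26a1. A gene was read from its brightest tested probe set, and 17 genes had more than 1. Signals are given in the order of the array numbers 1, 2 and 3. Whether arrays of different groups overlap is stated as a description only, and its share over all genes was not counted. Differences are on the log2 scale with their standard error, from limma across all 15 arrays, with Benjamini-Hochberg adjusted p over 21765 probe sets and a threshold of 0.05, so that "rose", "fell", "higher" and "lower" stand for calls past it.

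The promoters of 4 genes are shown, each chosen for its signals. Col9a2 and Col8a2 were among the genes that separated UO126 from SB202190, Col5a3 had the largest rise with TSA, and Col10a1 varied most between arrays of a group. The sequences are from RefSeq (GRCm38.p6) and are written 5′ to 3′ on the strand of the gene, as far as they lie upstream of the gene's annotated span. Capitals mark matches, on either strand, to the GC box GGGCGG, the CCAAT box CCAAT and the TATA box TATAAA, and no match overlapped one of another kind. The Col9a2 window (chr4:121039316-121039565, plus strand), the Col8a2 window (chr4:126286544-126286793, plus strand) and the Col5a3 window (chr9:20815118-20815317, minus strand) lie in no annotated gene. The Col10a1 window (chr10:34389731-34389980, plus strand) lies within the span of Nt5dc1.
Col9a2: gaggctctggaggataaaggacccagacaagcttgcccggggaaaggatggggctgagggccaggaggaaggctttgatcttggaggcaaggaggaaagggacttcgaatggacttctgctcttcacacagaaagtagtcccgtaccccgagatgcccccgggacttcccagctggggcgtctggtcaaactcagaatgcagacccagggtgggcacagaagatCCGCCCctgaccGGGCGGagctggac
Col8a2: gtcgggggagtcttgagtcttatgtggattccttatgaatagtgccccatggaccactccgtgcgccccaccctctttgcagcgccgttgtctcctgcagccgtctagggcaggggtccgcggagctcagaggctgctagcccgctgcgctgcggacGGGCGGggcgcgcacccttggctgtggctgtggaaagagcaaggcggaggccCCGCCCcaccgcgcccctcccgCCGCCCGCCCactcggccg
Col5a3: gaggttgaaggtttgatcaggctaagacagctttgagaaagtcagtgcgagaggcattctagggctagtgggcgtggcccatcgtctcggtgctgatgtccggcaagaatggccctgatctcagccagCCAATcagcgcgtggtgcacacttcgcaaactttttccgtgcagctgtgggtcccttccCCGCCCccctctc
Col10a1: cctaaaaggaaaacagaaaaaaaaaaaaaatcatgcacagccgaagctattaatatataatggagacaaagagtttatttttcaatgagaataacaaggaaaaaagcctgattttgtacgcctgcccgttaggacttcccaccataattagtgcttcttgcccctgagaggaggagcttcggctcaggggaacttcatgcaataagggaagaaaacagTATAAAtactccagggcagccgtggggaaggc

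The Col9a2 window held 2 GC boxes, the nearer of them 14 bases before the start, and Col8a2 held 4, of which the last 2 overlap each other. Col5a3 held 1 CCAAT box and 1 GC box. Col10a1 held none of these and a TATA box that begins 32 bases before its start. In the 250 bases before the start, a GC box was found in 58.3% of 36 collagen promoters, which stand for 33 of the 42 genes, and in 32.7% of all 32851 promoters of that length. The TATA box was found in 13.9% and 12.4%, and the CCAAT box in 36.1% and 33.8%. The SOX-type letters ACAATG were in 0 of the 36 collagen windows and in 10.7% of all. These matches describe the letters of the windows and were not tested.

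Before the comparisons, the labelled cell type was checked. All 9 chondrocyte markers, which include aggrecan (Acan) and the cartilage matrix protein Matn1, had a DMSO mean of at least 50, with a summed signal of 15241 to 22952 over the 3 arrays. That level was also reached by 9 of 11 fibroblast, 5 of 6 osteoblast, 5 of 5 tendon, 8 of 8 skeletal muscle, 6 of 8 macrophage and 4 of 6 smooth muscle markers, with the smooth muscle actin gene Acta2 at 3231. Of 9 endothelial markers 2 reached it, Eng (433.7) and Kdr (71.6), and the other 7 lay between 1.66 (Tie1) and 35.8 (Esam). The brightest marker of the osteoblast list, Ibsp (1786), is named among chondrocyte differentiation markers in the study's paper. Its signal therefore cannot tell osteoblasts from differentiating chondrocytes. DMSO array 1 stood apart, with a highest signal of 5165 against 6239 to 8622 on the other 14 arrays, and it gave the lowest DMSO signal of the bright collagens Col1a1, Col1a2, Col2a1, Col3a1, Col9a1 and Col11a1. Results that end without it are named.

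**Figure D1:**
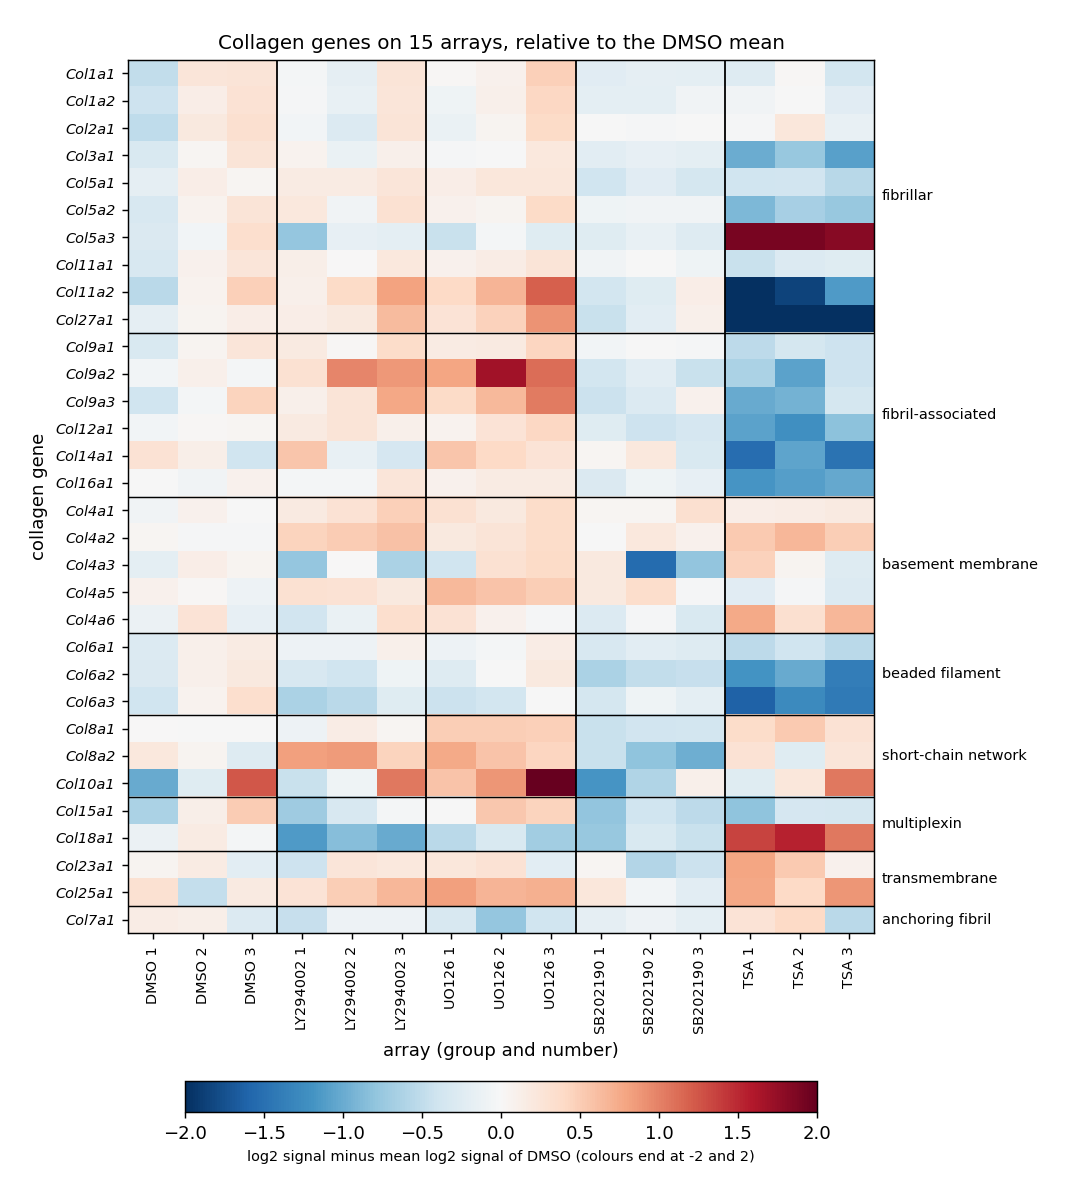
Log2 signal of the 32 tested collagen genes (vertical axis, grouped by collagen class) on each of the 15 arrays (horizontal axis), as the difference from the mean of the 3 DMSO arrays of the gene. Red is higher and blue lower, and the scale ends at -2 and 2. In the TSA columns Col27a1 and Col11a2 are lower and Col5a3 and Col18a1 higher. Col10a1 on UO126 array 3 is also deep red.

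The cartilage fibril was measured at each of its chains. Col2a1 gave signals of 3903, 6317 and 6880.1 in DMSO, 5324, 4582 and 6621 with LY294002, 5023, 5779.5 and 7232 with UO126, 5489.8, 5430.1 and 5532 with SB202190, and 5455, 6477 and 4971 with TSA. All 4 treated groups overlapped the DMSO arrays. Its differences from DMSO lay between -0.02 and 0.10, each with a standard error of 0.19, and the 95% interval with TSA ran from -0.39 to 0.42. None passed the threshold. Col2a1 was read from 1 probe set whose signals lay in the upper range of each array, and the part of this in the small differences was not tested.

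Col11a1, the first chain of type XI collagen, gave 3527, 4700.0 and 5227 in DMSO and 3245, 3677 and 3741 with TSA. These groups overlapped, and the difference of -0.32 ± 0.12 passed the threshold (adjusted p = 0.0323, limma) but not without DMSO 2, DMSO 3 or TSA 1 (adjusted p up to 0.163). With LY294002 it gave 4822, 4471 and 5137, with UO126 4721, 4904 and 5318, and with SB202190 4195, 4384 and 4159, all overlapping DMSO.

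Col11a2, the second chain of type XI, moved further. It gave 934, 1423 and 1901 in DMSO, 1466, 1781 and 2377 with LY294002, 1802, 2187 and 3122 with UO126, 1059, 1156 and 1496 with SB202190, and 343, 376 and 624 with TSA. All 3 TSA arrays lay below all 3 arrays of every other group. Col11a2 fell 3.16-fold with TSA (-1.66 ± 0.28, adjusted p = 0.000109, limma), a call that held under every alternative. The difference with UO126 was 0.76 ± 0.28 (adjusted p = 0.2).

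The 3 chains of type IX collagen, which decorates the type II fibril, all fell with TSA. Col9a1 gave 3718, 4767 and 5454 in DMSO and 3178, 3609 and 3452 with TSA (-0.43 ± 0.13, adjusted p = 0.00931, limma, 0.0529 without DMSO 3), and a dimmer probe set gave -1.16. With LY294002 it gave 5192, 4643 and 5939, with UO126 5148, 5211 and 6174, and with SB202190 4424, 4568 and 4499, and each of these groups overlapped DMSO. Col9a3 gave 1808, 2326 and 3250.3 in DMSO, 2554, 2851 and 4087 with LY294002, 3129.7, 3728 and 4919 with UO126, 1771, 1977 and 2550.1 with SB202190, and 1191, 1235 and 1866 with TSA. Its TSA arrays overlapped DMSO, and the fall of 0.77 on the log2 scale (SE 0.24, adjusted p = 0.0125, limma) was lost without DMSO 3 or TSA 1 (adjusted p up to 0.0719).

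Against DMSO, Col9a2, the second chain of type IX, rose with 1 inhibitor and fell with another. It gave 257, 286 and 259 in DMSO, 329, 523 and 485 with LY294002, 463, 858 and 577 with UO126, 206, 229 and 195 with SB202190, and 171, 127 and 199 with TSA. The LY294002 and UO126 arrays lay above all DMSO arrays, whereas the SB202190 and TSA arrays lay below them. Col9a2 rose 2.30-fold with UO126 (1.20 ± 0.21, adjusted p = 0.00559, limma) and fell 1.64-fold with TSA (-0.71 ± 0.21, adjusted p = 0.0102, limma, 0.0599 without TSA 2). With LY294002 the difference of 0.71 ± 0.21 was just outside the threshold (adjusted p = 0.0528), and with SB202190 it was -0.35 ± 0.21 (adjusted p = 0.463).

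Col27a1, a fibrillar collagen of cartilage, showed the largest change of any collagen. Its signals of 962, 1133 and 1196 in DMSO stood against 116, 148 and 125 with TSA, with no overlap. This was an 8.46-fold fall (-3.08 ± 0.17, 95% interval -3.45 to -2.71, adjusted p = 1.47e-09, limma), and the second probe set of Col27a1 fell by 3.36. With LY294002 Col27a1 gave 1193, 1247 and 1700.3, with UO126 1326, 1507 and 2039, and with SB202190 804, 942 and 1166. The UO126 arrays lay above all DMSO arrays, but the difference of 0.55 ± 0.17 did not pass the threshold (adjusted p = 0.132).

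Col10a1, the marker of hypertrophic chondrocytes, varied more between arrays of 1 group than between most groups. It gave 219.8, 374 and 1049 in DMSO, 323, 416 and 921 with LY294002, 659.8, 819 and 2061 with UO126, 196, 289.9 and 476 with SB202190, and 375, 515 and 916 with TSA. In every group the array numbered 3 was the highest and the array numbered 1 the lowest. The same held of the array numbered 3 for Col9a3 and Col11a2, 3 of 32 collagen genes, against 2.83% of all 11751 genes tested. The array numbered 2 was the highest of every group for Col18a1 alone (1.32% of all genes), and the array numbered 1 for 0 collagens (2.48% of all genes). At equal numbers, Col10a1 was higher with UO126 than in DMSO in 3 of 3 cases. The difference with UO126 was 1.23 ± 0.56 (95% interval 0.04 to 2.42, adjusted p = 0.336). With the array number as a block over all groups it was 1.23 ± 0.15 (adjusted p = 0.000306, limma). That smaller error rests on treating equal numbers as pairs, which the labels do not state.

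**Figure D2:**
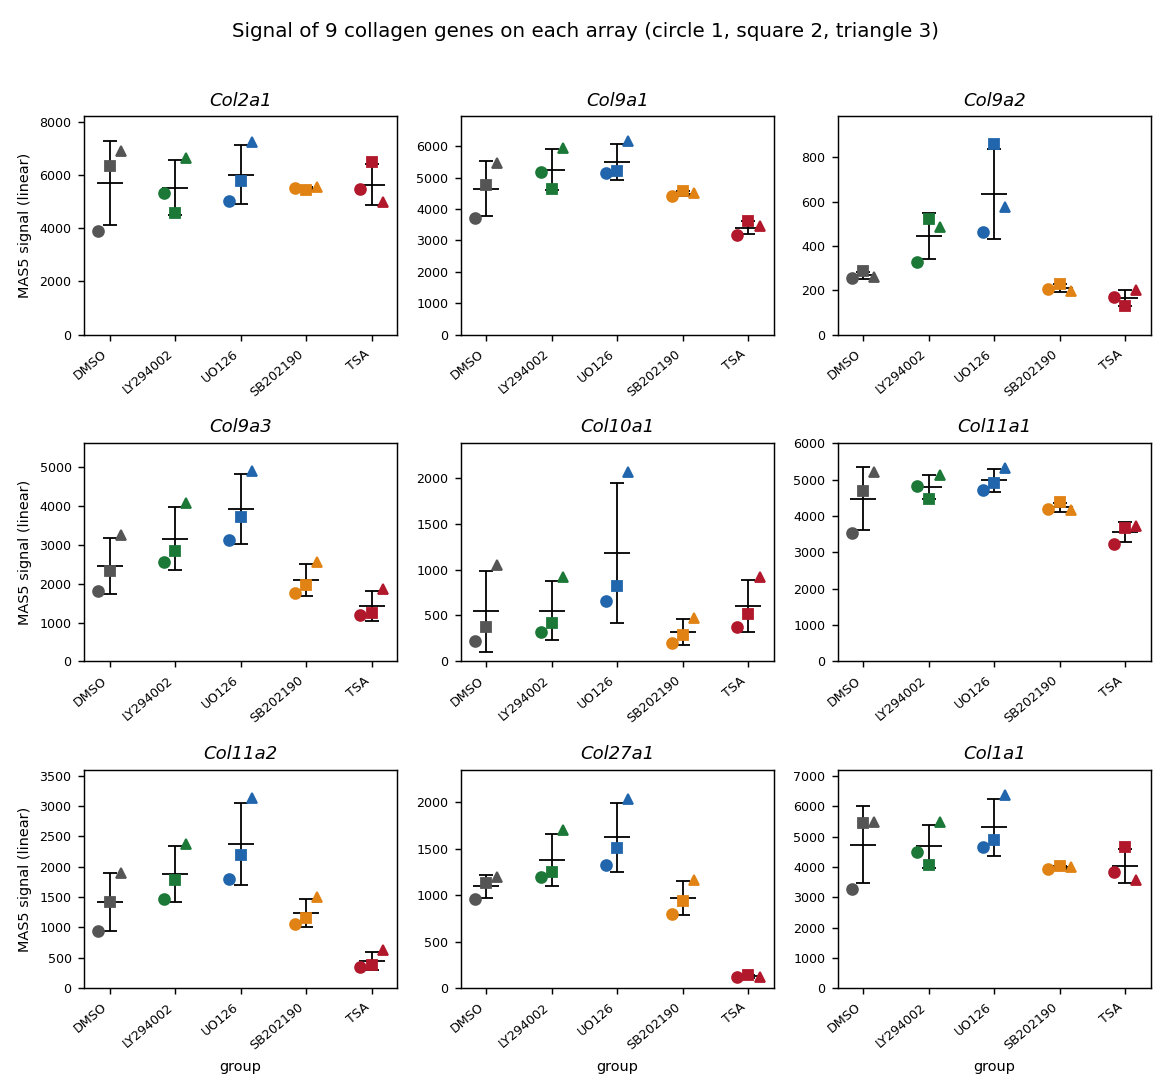
MAS5 signal (vertical axis, linear, starting at 0) of 9 collagen genes on each array, by group. Circles, squares and triangles are the arrays numbered 1, 2 and 3, the short bar is the group mean and the error bar the SD of 3 arrays. Col2a1 overlaps in all groups, Col27a1 and Col11a2 drop with TSA, and the triangle is the highest Col10a1 value of each group.

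Among the collagens of fibrous tissue and bone, Col1a1 gave 3259, 5446 and 5472 in DMSO, 4488, 4071 and 5470.3 with LY294002, 4656, 4893 and 6384 with UO126, 3937, 4043 and 3995 with SB202190, and 3847, 4668 and 3583 with TSA. Col1a2, the other chain of type I, gave 3855, 5589 and 6241 in DMSO and 4866, 5112 and 4397 with TSA. Neither passed the threshold in any comparison with DMSO, and their differences with TSA were -0.20 ± 0.18 and -0.10 ± 0.16. With quantile normalization both were lower with TSA (-0.32 and -0.25, adjusted p = 0.00194 and 0.00116, limma), and Col1a1 was lower without DMSO 1 (-0.45, adjusted p = 0.0175). The Col1a2 arrays of LY294002 (5036, 4614 and 6049.6), UO126 (4831, 5515 and 6825) and SB202190 (4454, 4455 and 4862) also overlapped DMSO.

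Col3a1, the type III chain, fell with TSA. Its signals were 3516, 4459 and 5163 in DMSO, 4532, 3960.0 and 4664 with LY294002, 4266, 4308 and 5028 with UO126, 3746, 3847 and 3766 with SB202190, and 2178, 2564 and 2046 with TSA. The TSA arrays lay below all others, a 1.92-fold fall (-0.94 ± 0.13, adjusted p = 1.29e-05, limma).

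LY294002 was compared with DMSO for genes that move when PI3K is inhibited. Of the 32 collagen genes 2 were higher and 1 was lower, and over all genes tested 9.47% were called, 5.63% higher and 3.84% lower. The members' share of 9.38% was near this background. Their median difference was 0.04, against 0.01 over all genes. With each array centred on its median signal the median of all genes moved to 0.14 and that of the collagens to 0.17. The second probe set of Col5a2 was also higher (0.38, adjusted p = 0.0251, limma), while its brightest gave 0.14 (adjusted p = 0.568).

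Col18a1, whose C-terminal fragment is endostatin, was the collagen that fell with LY294002. It gave 226, 274 and 237 in DMSO and 112, 135 and 122 with LY294002. The groups did not overlap, and the 2.00-fold fall (95% interval -1.32 to -0.68 on the log2 scale, adjusted p = 0.00143, limma) held under every alternative. Col18a1 gave 169, 198 and 152 with UO126 and 145, 197 and 181 with SB202190, both below all DMSO arrays but outside the threshold (-0.51 ± 0.15, adjusted p = 0.0933, and -0.50 ± 0.15, adjusted p = 0.0894). The second probe set of Col18a1 fell with UO126 (-0.75, adjusted p = 0.00292, limma) and gave -0.28 with SB202190 (adjusted p = 0.266).

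Col4a2, a chain of basement membrane type IV collagen, gave 368, 352 and 350.2 in DMSO and 485, 509 and 533 with LY294002. It rose 1.43-fold (0.51 ± 0.08, adjusted p = 0.00243, limma). Its partner in the same triple helix, Col4a1, gave 674, 757 and 706 in DMSO and 808, 871 and 995 with LY294002, again without overlap, at 0.32 ± 0.10 (adjusted p = 0.0526). These genes lie head to head on chromosome 8 (GRCm38.p6), where RefSeq puts a start site of Col4a2 at 11312805 on the plus strand and one of Col4a1 at 11312826 on the minus strand. The annotated span of Col4a1 reaches further, to 11312889, and so overlaps that of Col4a2.

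Col8a2, a short-chain collagen that forms hexagonal networks, gave 353, 317 and 255 in DMSO and 538, 548 and 414 with LY294002. It rose 1.62-fold without overlap (0.70 ± 0.17, adjusted p = 0.0249, limma). The call was lost without DMSO 2, DMSO 3, LY294002 1 or LY294002 2 (adjusted p up to 0.102). With the array number as a block, 7 collagens were higher and 2 lower with LY294002 than in DMSO, against 9.51% and 6.87% of all genes, and the additions were Col4a1, Col4a5, Col9a2, Col9a3 and Col11a2 (higher) and Col6a3 (lower).

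The comparison of UO126 with DMSO addresses MEK and ERK. Of the 32 collagens 3 were higher and 0 lower (limma, with 13 higher and 2 lower before adjustment at the same threshold). Over all genes 3.45% were called, 1.88% higher and 1.57% lower, and before adjustment 8.65% were higher and 7.03% lower. The difference was positive in 27 of 32 collagens, and their median was 0.20 against 0.01 over all genes.

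Besides Col9a2, the genes that rose with UO126 were Col4a5 and Col8a1. Col4a5, a type IV chain encoded on the X chromosome, gave 468, 448 and 411 in DMSO and 694, 659 and 622 with UO126 (0.57 ± 0.10, adjusted p = 0.00497, limma). Col8a1, the partner of Col8a2, gave 465, 456 and 460.1 in DMSO and 648, 648 and 637 with UO126 (0.49 ± 0.08, adjusted p = 0.00352, limma). Both genes had all UO126 arrays above all DMSO arrays, and leaving out any 1 array kept their calls. With the array number as a block 8 collagens were higher and 1 lower, against 3.38% and 2.57% of all genes. Beside Col10a1 the additions were Col8a2, Col9a3, Col11a2 and Col27a1 (higher) and Col18a1 (lower).

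With SB202190, 0 of 32 collagens were higher and 2 lower than in DMSO (limma, with 0 higher and 8 lower before adjustment at the same threshold). Over all genes 3.52% were called, 2.01% higher and 1.51% lower, and before adjustment 11.4% were higher and 7.08% lower. The difference was negative in 29 of 32 collagens, with a median of -0.20 against 0.03 over all genes. With arrays centred on their medians it was negative in 25, and with quantile normalization in 27.

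Both genes that fell with SB202190 on their brightest probe set encode type VIII collagen. Col8a1 gave 338, 354 and 356 with SB202190, all below the 3 DMSO arrays (-0.40 ± 0.08, adjusted p = 0.017, limma). Col8a2 gave 226, 175 and 156, also below all DMSO arrays (-0.74 ± 0.17, adjusted p = 0.0335, limma). The Col8a1 call was lost without SB202190 1 or 2 (adjusted p up to 0.0745), and that of Col8a2 without DMSO 1, DMSO 2, SB202190 2 or SB202190 3 (adjusted p up to 0.12). Centring on the array median also ended both calls, and a dimmer probe set of Col8a1 gave -0.10 (adjusted p = 0.809). The second probe set of Col3a1 was lower (-0.45, adjusted p = 0.0469, limma), while its brightest gave -0.19 (adjusted p = 0.498). Col5a1 (-0.33, adjusted p = 0.0563) and Col6a2 (-0.53, adjusted p = 0.0567) were just outside the threshold. Both were lower with quantile normalization, and both without DMSO 1.

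UO126 and SB202190 were then compared directly. Of the 32 collagens 11 were higher with UO126 and 0 lower (limma, with 19 higher and 0 lower before adjustment at the same threshold), where 4.99% of all genes were higher, 4.78% lower and 9.77% called in either direction. Before adjustment 10.8% of all genes were higher and 13.4% lower. The median difference of the collagens was 0.40, and that of all genes -0.02. It was positive in 28 of 32 collagens. The second probe set of Col18a1 went the other way and was lower with UO126 (-0.47, adjusted p = 0.0251, limma). Its brightest probe set gave -0.01 (adjusted p = 0.983).

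Col9a2 differed 2.92-fold (1.55 ± 0.21, adjusted p = 0.000286, limma), and both type VIII chains differed too. Col8a2 gave 517, 454 and 413 with UO126 against 226, 175 and 156 with SB202190 (2.51-fold, 1.33 ± 0.17, adjusted p = 0.000202, limma), and Col8a1 differed 1.84-fold (0.88 ± 0.08, adjusted p = 7.13e-06, limma). Neither gene overlapped between the groups. Col5a1, which helps to set fibril diameter, gave 1872, 1998 and 1988 against 1292, 1456 and 1333 (0.52 ± 0.09, adjusted p = 0.00129, limma). Col12a1, a fibril-associated collagen, gave 951, 1095 and 1205 against 769, 680.1 and 719.7 (0.58 ± 0.10, adjusted p = 0.00255, limma). Leaving out any 1 array kept these 5 calls.

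The other 6 collagens higher with UO126 than with SB202190 were Col27a1 (0.74), Col4a5 (0.40), Col9a3 (0.89), Col16a1 (0.32), Col6a2 (0.50) and Col15a1 (0.90), with adjusted p between 0.0158 and 0.0392. Each of these calls was lost when 1 of several arrays was left out, and the count of 11 became 6 to 10. Col10a1 had the largest estimate, 1.79 ± 0.56, with an adjusted p of 0.0635.

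Markers of cell types differed between UO126 and SB202190 as well. Of chondrocyte markers 7 of 9 were higher with UO126 (median difference 0.79), with a sum of 21825 to 30718 against 11879 to 16389 with SB202190. Of osteoblast markers 4 of 5 were higher (median 1.38, sum 2838 to 3214 against 935 to 1434), as were 4 of 4 smooth muscle markers (sum 7704 to 8808 against 5030 to 5352) and 2 of 5 tendon markers. Most of the osteoblast sum was Ibsp (mean 2030 with UO126 and 717 with SB202190), which differentiating chondrocytes also express. Of 9 fibroblast markers 1 was higher and 3 were lower, and 0 of the tested endothelial, skeletal muscle and macrophage markers were called. Of all genes 4.99% were higher and 4.78% lower. The part of these marker shifts in the 11 collagen calls was not tested.

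**Figure D3:**
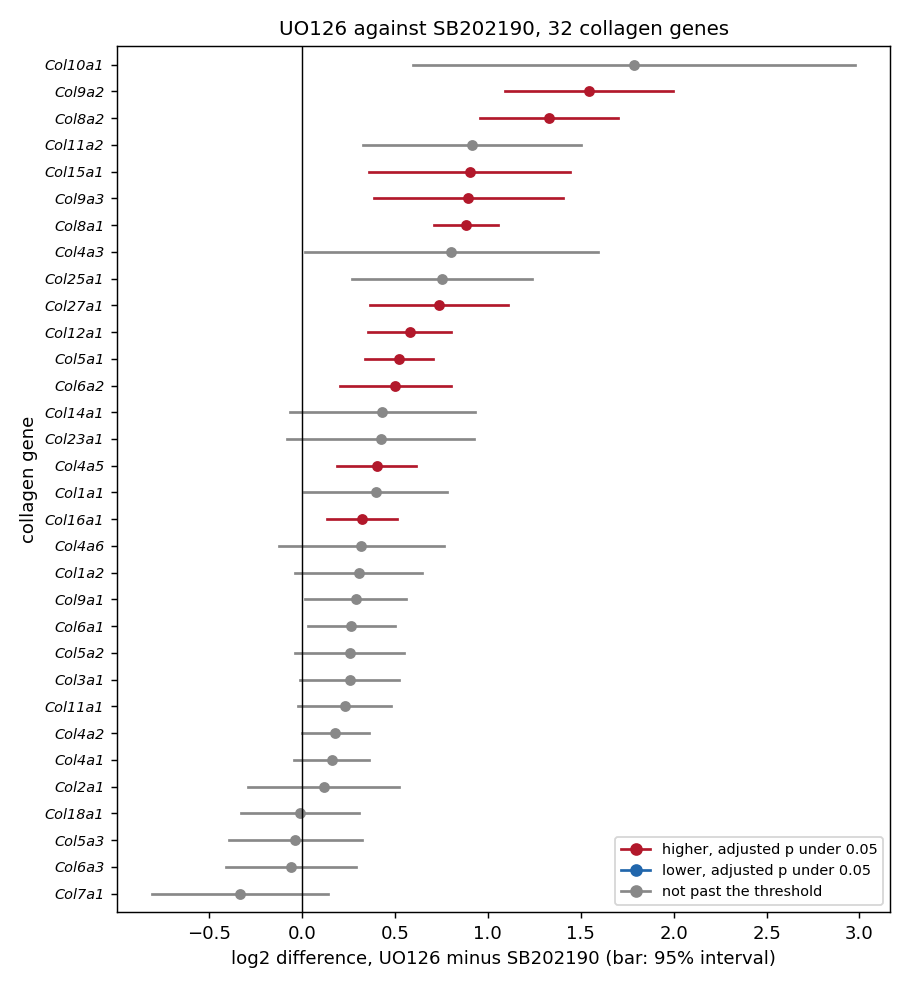
Log2 difference between UO126 and SB202190 (horizontal axis, UO126 minus SB202190) for each of the 32 tested collagen genes (vertical axis), with 95% intervals. Red marks the 11 genes higher with UO126 at an adjusted p under 0.05, and grey the 21 others. Points lie right of 0 for 28 genes, and Col10a1 has the widest interval.

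LY294002 was set against the same inhibitors. Against SB202190, 6 collagens were higher and 0 lower (limma, with 10 higher and 1 lower before adjustment at the same threshold), and 7.38% of all genes were called, 3.61% higher and 3.77% lower (10.7% and 11.5% before adjustment). The 6 were Col8a2 (1.44 ± 0.17, adjusted p = 0.000229), Col9a2 (1.06 ± 0.21), Col5a1 (0.51 ± 0.09), Col12a1 (0.51 ± 0.10), Col8a1 (0.42 ± 0.08) and Col4a2 (0.42 ± 0.08). Col18a1 went the other way, outside the threshold (-0.50, adjusted p = 0.0641, limma), and was lower without SB202190 1 (adjusted p = 0.043). Its second probe set was lower (-0.71, adjusted p = 0.00269, limma). Against UO126 1 collagen was lower, Col8a1 (-0.46 ± 0.08, adjusted p = 0.0035, limma), with 8.18% of all genes called, 4.36% higher and 3.82% lower. With the array number as a block 7 were lower, against 6.48% of all genes, the additions being Col4a5, Col9a3, Col10a1, Col11a2, Col15a1 and Col18a1.

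A ratio of group means of 1.4 or more in either direction, with no test, was met by 5 collagens for LY294002 against DMSO (10.3% of all genes), 10 for UO126 (6.65%) and 5 for SB202190 (7.28%). It was met by 5 for LY294002 against UO126 (10.5%) and by 10 for LY294002 against SB202190 (9.52%). With the array number as a block, 7 collagens were called for SB202190 against DMSO (6.65% of all genes) and 11 for LY294002 against SB202190 (11.5%), but in these pairs the deviations of arrays of equal number did not correlate above 0.1 for every number.

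Across the 5 groups, Col8a1 signals were 465, 456 and 460.1 in DMSO, 427, 509.6 and 471 with LY294002, 648, 648 and 637 with UO126, 338, 354 and 356 with SB202190, and 592, 659 and 565 with TSA. From the lowest, the order was SB202190, then DMSO and LY294002, which overlapped, then TSA and UO126, which overlapped too.

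TSA gave the widest change. Of 32 collagens 15 were lower and 6 higher than in DMSO, and over all genes 58.9% were called, 28.4% lower and 30.6% higher. The median collagen difference was -0.26, and that of all genes 0.00. Calls of at least 2-fold were made in 7 collagens that fell and 2 that rose, against 9.10% and 10.5% of all genes. The other inhibitors as the reference gave 17 lower and 4 higher against LY294002 (58.4% of all genes called, 29.0% lower and 29.4% higher). Against UO126 18 were lower and 3 higher (59.6% of all genes, 29.0% lower and 30.6% higher), and against SB202190 11 were lower and 8 higher (56.9%, 28.7% lower and 28.2% higher). With the array number as a block, 13 were lower and 9 higher with TSA than with SB202190 (30.7% and 30.2% of all genes). The additions were Col10a1 (0.90, adjusted p = 0.000166, limma), higher, and Col9a3 (-0.57, adjusted p = 2.08e-05) and Col11a1 (-0.26, adjusted p = 0.0432), lower.

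By class, the falls with TSA took in 6 of 6 fibril-associated genes, 3 of 3 beaded filament genes of type VI and 6 of 10 fibrillar genes. In the basement membrane class 2 of 5 rose and 0 fell. Of all genes 28.4% fell and 30.6% rose, and the classes hold few genes. Of the other classes, 1 of 3 short-chain, 1 of 2 multiplexin and 1 of 2 transmembrane genes rose, and the anchoring fibril gene Col7a1 did not pass (0.04 ± 0.22). Median differences were -0.91 for the fibril-associated, -1.19 for the beaded filament, -0.38 for the fibrillar and 0.15 for the basement membrane genes.

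Type VI collagen forms a network of beaded filaments around cells. Col6a3, its longest chain, gave 1564, 2151 and 2582 in DMSO and 667, 849 and 774 with TSA (2.71-fold lower, -1.44 ± 0.16, adjusted p = 2.56e-06, limma). Col6a2 fell by 1.19 ± 0.14 on the log2 scale and Col6a1 fell by 0.49 ± 0.11. In each of these chains the TSA arrays lay below all DMSO arrays, and the share of all genes without overlap was not counted.

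Among fibril-associated collagens, Col14a1 gave 134, 119.7 and 83.8 in DMSO and 38.4, 53.1 and 39.6 with TSA (2.56-fold lower, -1.35 ± 0.23, adjusted p = 0.000153, limma). Col16a1 (-1.10 ± 0.09) and Col12a1 (-1.04 ± 0.10) fell too, and their TSA arrays lay below all DMSO arrays. The fibrillar chains Col5a2 (-0.77 ± 0.14) and Col5a1 (-0.45 ± 0.09) also fell.

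Col5a3, the third chain of type V collagen, went the other way from Col5a1 and Col5a2. It gave 182, 213 and 279.8 in DMSO, 129, 198 and 194 with LY294002, 162, 215 and 186 with UO126, 188, 200.3 and 186 with SB202190, and 827, 829 and 781 with TSA. The TSA arrays lay well above the 12 others. It rose 3.67-fold (1.88 ± 0.17, adjusted p = 2.06e-07, limma). Its second probe set was at background on the DMSO and TSA arrays (0.69 to 5.51) and was not tested.

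Col18a1 rose as well, to 623, 715 and 507 against 226, 274 and 237 in DMSO (2.49-fold, 1.31 ± 0.15, adjusted p = 2.42e-06, limma). It had fallen with LY294002, and between TSA and LY294002 it differed 4.97-fold (2.31 ± 0.15, adjusted p = 5.69e-09, limma). Col4a2 gave 512, 565 and 504 with TSA (0.56 ± 0.08, adjusted p = 3.78e-05, limma), above all DMSO arrays, and Col4a1 gave 779.6, 789.7 and 807 (0.15 ± 0.10, adjusted p = 0.183), also above them. Col8a1 rose by 0.39 ± 0.08.

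The remaining rises, in the transmembrane collagen Col25a1 (0.68 ± 0.23) and the type IV chain Col4a6 (0.58 ± 0.21), were of dim genes with TSA means of 58.3 and 80.7. Col25a1 had a DMSO mean of 36.9 and was tested only because its TSA, UO126 and LY294002 means reached 50. Both calls were lost without single arrays, DMSO 2, TSA 1 or TSA 3 for Col25a1 and DMSO 1, DMSO 3, TSA 1 or TSA 3 for Col4a6 (adjusted p up to 0.104 and 0.0998).

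**Figure D4:**
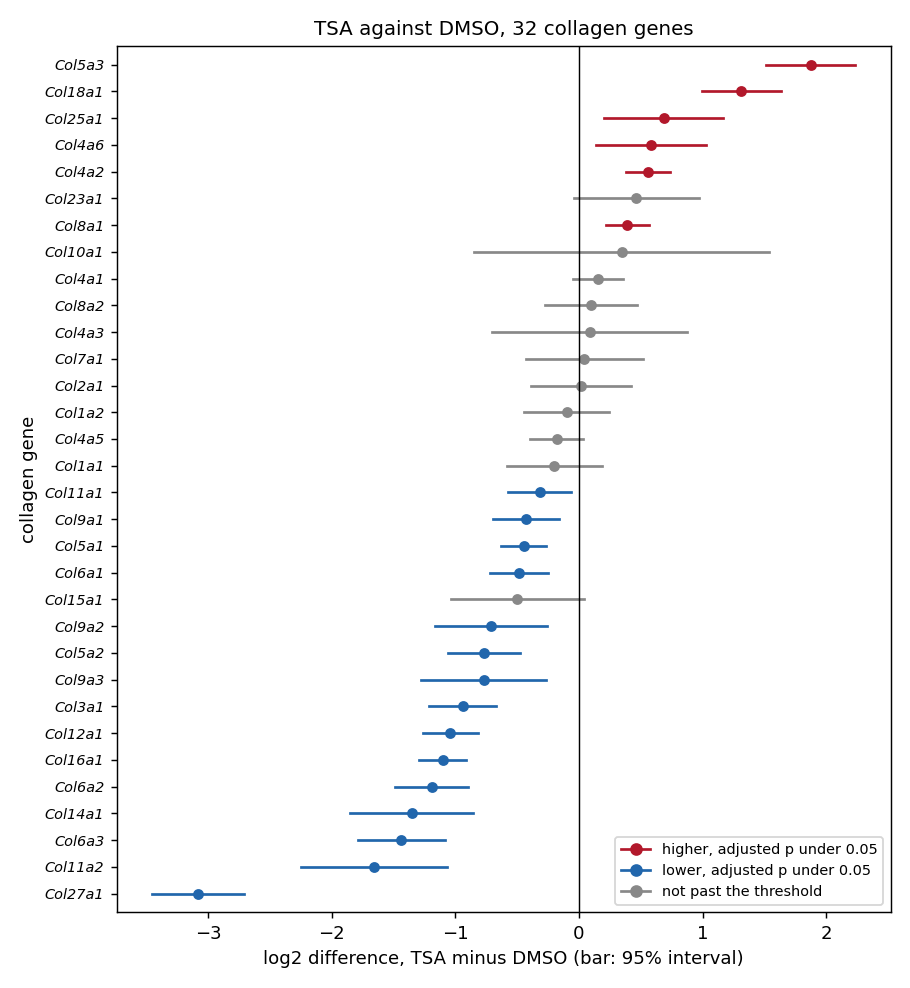
Log2 difference between TSA and DMSO (horizontal axis) for the 32 tested collagen genes (vertical axis), with 95% intervals. Blue marks 15 lower genes, red 6 higher genes and grey the 11 that did not pass. Col27a1 lies at -3.08 and Col5a3 at 1.88, and Col2a1 lies at 0.02.

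The size of the TSA change depended on the probe set for some genes. There were 15 collagen genes with at least 2 tested probe sets of a mean signal of 100 or more. In 10 of them the dimmest probe set gave a lower difference than the brightest, and in 0 of 15 did the sign differ. For Col3a1 the values were -0.94 on the brightest and -2.46 on the dimmest, for Col5a2 -0.77 and -1.66, and for Col9a1 -0.43 and -1.16. Col1a2, which did not pass on its brightest probe set (-0.10), fell on its dimmest (-0.37, adjusted p = 0.0131, limma), and Col5a1 did not pass on its dimmest (adjusted p = 0.382). The brightest probe sets of Col1a1, Col1a2, Col2a1, Col3a1, Col9a1 and Col11a1 had signals up to 7232 on arrays whose highest signal was 5165 to 8622. The part of this brightness in the smaller differences was not tested.

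**Figure D5:**
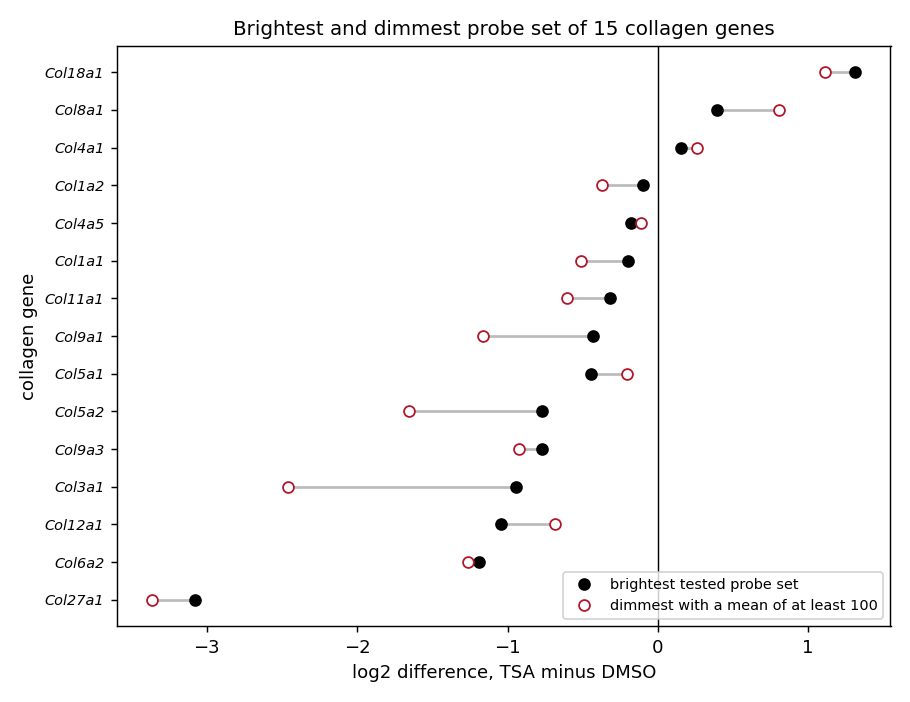
Log2 difference between TSA and DMSO (horizontal axis) on the brightest tested probe set (black) and the dimmest with a mean of at least 100 (open red) of 15 collagen genes (vertical axis). The pair of points lies on the same side of 0 in all 15 genes, and is widest apart for Col3a1.

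Markers of several cell types moved with TSA too. All 9 chondrocyte markers fell, and their summed signal was 2450 to 3966 against 15241 to 22952 in DMSO. Of the tested markers 7 of 9 fell for fibroblasts, 3 of 5 for tendon, 4 of 5 for osteoblasts, 3 of 4 for smooth muscle, 6 of 8 for skeletal muscle and 5 of 6 for macrophages, while 1 of 3 fell for endothelium. In the same lists 1 of 9 fibroblast and 1 of 6 macrophage markers rose. Of all genes 28.4% fell and 30.6% rose. The summed fibroblast signal was 3644 to 4067 against 6363 to 6725 in DMSO. Their part in the collagen differences was not tested. With UO126 the chondrocyte sum was 21825 to 30718 and with SB202190 11879 to 16389, with 0 of 9 markers called with UO126 and 1 of 9 lower with SB202190. With UO126 2 of 5 tendon markers rose, with a sum of 3197 to 3441 against 1622 to 2028 in DMSO, and so did 2 of 4 smooth muscle markers. With SB202190 1 of 5 osteoblast markers fell, with a sum of 935 to 1434 against 2263 to 2664 in DMSO, as did 1 of 5 tendon markers, with a sum of 1258 to 1515, and 1 of 4 smooth muscle markers. With LY294002 1 of 9 fibroblast and 1 of 3 endothelial markers fell and 1 of 5 tendon markers rose. With UO126 1 of 9 fibroblast markers rose. Of all genes 5.63% rose and 3.84% fell with LY294002, 1.88% and 1.57% with UO126, and 2.01% and 1.51% with SB202190. The part of these cells in the collagen results was not tested.

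The enzymes and chaperones that act on procollagen were taken from a list of 22 genes, all tested. With TSA 15 were lower and 1 higher, where 28.4% of all genes were lower and 30.6% higher. The fall was 1.54 for Fkbp14, a prolyl isomerase of the endoplasmic reticulum, 1.90 for P3h3, of the prolyl 3-hydroxylase family, and 0.91 for Sec24d, part of the COPII coat that carries procollagen out (adjusted p = 3.41e-10, 1.3e-09 and 3.5e-07, limma). With UO126 5 were higher and 0 lower, beside 1.88% and 1.57% of all genes. The prolyl 4-hydroxylase chain P4ha1 (0.43 ± 0.09), the lysyl hydroxylase Plod2 (0.52 ± 0.11) and Fkbp14 (0.34 ± 0.08) had the smallest p. LY294002 raised 1, P3h3 (0.54 ± 0.11), beside 5.63% of all genes, and SB202190 changed 0 of 22, beside 3.52%.

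Of 10 tested genes for procollagen proteinases and cross-linking, 8 were lower and 1 higher with TSA, beside the same 28.4% and 30.6% of all genes. Loxl3 (-2.73 ± 0.17) and Loxl1 (-1.08 ± 0.09) encode lysyl oxidase-like cross-linking enzymes, and Pcolce (-1.55 ± 0.10) encodes an enhancer of C-propeptide removal. With UO126 1 was higher, the N-propeptidase Adamts3 (0.76 ± 0.18), beside 1.88% of all genes. With LY294002 and SB202190 0 were called, beside 9.47% and 3.52% of all genes. Of 6 tested collagen-cleaving proteases, 5 were lower with TSA, beside 28.4% of all genes, among them the gelatinase Mmp2 (-1.29), the membrane-bound Mmp14 (-2.83) and cathepsin K, Ctsk (-2.62). Mmp9 was lower with UO126 (-1.02), beside 1.57% of all genes, and 0 of 6 were called with LY294002 or SB202190.

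Of 7 tested collagen receptors, 4 were lower and 1 higher with TSA, beside 58.9% of all genes called. The discoidin receptor Ddr2 (-1.51), the integrin chain Itga10 (-2.30) and the endocytic receptor Mrc2 (-1.03) had the smallest p. With LY294002 3 were higher, Itga1 (0.88), Ddr1 (0.68) and Mrc2 (0.39), beside 5.63% of all genes. Itga1 was higher with UO126 (0.69), and Mrc2 with SB202190 (0.51), beside 1.88% and 2.01% of all genes.

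Of 14 transcription factors known to act on collagen genes, 7 were lower and 1 higher with TSA, a share of calls near the 58.9% over all genes. Those with the smallest p were Sp7, an osteoblast factor (-1.63), Sox5 (-1.08) and Sox9 (-1.52), which with Sox5 and Sox6 is known to drive Col2a1, Col9a1 and Col11a2. With UO126 Mef2c was higher (0.57) and Cebpb lower (-0.51), with SB202190 Foxa3 was lower (-0.68), and with LY294002 0 of 14 were called. Of all genes 3.45% were called with UO126, 3.52% with SB202190 and 9.47% with LY294002.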

How the data were processed

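Signals of 15 arrays were analysed, 3 for each of the groups DMSO, LY294002, UO126, SB202190 and TSA, as the titles name them. Per the labels and the deposited table, the authors made signal intensity values with MAS5, scaled so that the mean with 2% trimmed at each end was 150.0 on every array. No detection calls were used. Depth can be read only from the signals, and 3 arrays per group limit the precision.

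A floor of 1 was applied to the signals, which were then taken to log2. Probe sets with a group mean of 50 in at least 1 of 5 groups were fitted with limma 3.58.1 (R 4.3.3), all 15 arrays together, with empirical Bayes moderation and a trend on mean signal. Tests were two-sided, for 10 comparisons, adjusted by Benjamini-Hochberg within each. The script was tested on simulated data. Symbols came from the platform annotation, where 34958 probe sets had 1 symbol, 932 several and 9211 none, and 99.4% of those with 1 matched RefSeq. A gene was represented by its probe set with the highest mean log2 signal, and collagen classes and gene lists were set by hand. The members and lists were chosen with earlier results of these data known. Named with all signals were Col2a1, Col9a1, Col9a2, Col9a3, Col10a1, Col11a1, Col11a2, Col27a1, Col1a1, Col1a2 and Col3a1, and per comparison with DMSO up to 4 rises and 4 falls with a mean of 100 in the higher group. Of other lists up to 3 members with the smallest p were named.

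Equal array numbers were taken as pairs where deviations from the group means correlated above 0.1 for each number. This held for LY294002 and UO126 with DMSO, LY294002 with UO126, and TSA with SB202190 (r from 0.138 to 0.425), and the number was then used as a block. The alternatives were other normalizations, filters, pseudocounts, variance priors, probe sets, 2 groups alone, a 1.4-fold ratio rule and leaving out arrays.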

Additional observations from a re-analysis of the deposited data

How the results depend on the processing

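The counts of called collagen genes in the 4 comparisons with TSA stayed within 1.5 times of those reported under every alternative. With the array number as a block, the counts became 9 for LY294002 and 9 for UO126 against DMSO, 7 for SB202190 against DMSO, 7 for LY294002 against UO126 and 11 for LY294002 against SB202190. All 15 arrays correlated best with their own number in the other groups, and the block is not supported by the labels. Counting by a 1.4-fold ratio of group means, without a test, gave 5 for LY294002, 10 for UO126 and 5 for SB202190 against DMSO, 5 for LY294002 against UO126 and 10 for LY294002 against SB202190.

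For LY294002 against DMSO, 5 were called with centred arrays and 5 with probe sets whose ID has no _s, _x or _a, and 1 without the 5 arrays numbered 3. For UO126 against DMSO 1 was called without the 5 arrays numbered 1. For SB202190 against DMSO quantile normalization gave 6, centring 0, no filter 1, no variance trend 1, the 2 groups alone 0, averaged probe sets 1, and leaving out the arrays numbered 3 or those numbered 1 gave 0 each. Leaving out 1 array gave 0 to 4, with 4 without DMSO 1. For LY294002 against UO126 centring gave 0, the mean of probe sets 2, and leaving out the arrays numbered 3 or 1 gave 0 each. For LY294002 against SB202190 the last 2 settings gave 2 and 3. For UO126 against SB202190 no filter gave 7, leaving out the arrays numbered 1 gave 7, and leaving out 1 array gave 6 to 10. Leaving out all arrays of a number was chosen after the data were seen, and it leaves 2 arrays per group.

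With all probe sets averaged per gene, Col12a1 had -0.0356 for LY294002 against SB202190 (adjusted p = 0.95), and Col4a3 had 1.05 for TSA against UO126 (adjusted p = 0.0367). In the same setting the calls of Col12a1 and Col5a3 with TSA were lost (adjusted p = 0.454 and 0.646), since this mean includes probe sets at background. Dim signals limit the precision for Col14a1 with TSA and Col25a1 in DMSO. The causes of the other changes were not tested.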
